A study of Mus musculus with 40 samples.

Results

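In untreated 12-month-old mouse livers, most interferon-induced, macrophage, neutrophil and sterol synthesis genes were higher at 72 h after partial hepatectomy than at 48 h. Most fatty acid oxidation and DNA replication genes were lower, and antioxidant genes less so. Only a minority of the interferon-induced and sterol synthesis genes passed the borrowed-spread test given below, and the summed level of neutrophil markers changed little. The comparison covers all 11119 gene entries of the authors' tables and takes the mean level of 4 livers at 72 h minus the mean level of 3 livers of other mice at 48 h, which are 7 of the 40 liver samples of the series. Partial hepatectomy (PH) is the surgical removal of part of the liver, after which the remaining tissue grows back. Of the 11119 entries, 369 were higher at 72 h by 1 or more on the log2 scale (3.32%), which is a 2-fold change, and 210 were lower by that amount (1.89%).

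Regeneration after PH is known to proceed by division of hepatocytes that were at rest, which replicate their DNA and then enter mitosis within days of the operation. Kupffer cells, the resident macrophages of the liver, are known to prime this response through cytokines, and the regenerating tissue stores and then uses fat before it returns to its normal metabolism. Interferon-induced genes are switched on by STAT and IRF factors after a cell senses foreign or misplaced nucleic acid or receives interferon from other cells.

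The 2 groups compared were 12 months old and untreated, and the labels give their tissue as liver, their cell type as hepatocytes and their material as polyA RNA, with neither strain nor sex. At 0 h, 8 mice of the same age were sampled, 4 of which carry the names of the untreated 72 h mice and 4 those of the ATRi 72 h mice, so levels at 0 h are given beside the others without a test. The same interval was also measured in untreated 3-month-old mice (3 at 48 h and 4 at 72 h) and in 12-month-old mice given ATRi, an inhibitor of the DNA damage checkpoint kinase ATR, at 24 h (3 at 48 h and 4 at 72 h). No mouse of those intervals belongs to the untreated 12-month comparison. The ATRi livers at 72 h, named M545 to M548, are the only 4 of these whose single levels were used.

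Each untreated group has only a mean, so the difference between 72 and 48 h has no replicate test of its own. As a yardstick, limma was run with the spread of the 4 ATRi livers, which assumes that untreated livers vary as much as treated ones. With that borrowed spread 339 entries rose (3.05%) and 484 fell (4.35%) at a Benjamini-Hochberg adjusted p under 0.05, including 197 of the 369 and 141 of the 210. "Rose" and "fell" are used below only for genes that passed it. Of the entries past a 2-fold change, 63.7% were higher at 72 h. That share was 77.1% once the median difference of all entries (−0.10) was subtracted, and 41.2% among the entries that passed limma. The deposited mean of the ATRi group lay outside the range of its 4 livers for 19.2% of entries, with a median offset of 0.088, so it is not the plain mean of those livers. The limma fit joined these single livers with the deposited means of the other groups. Its p-values therefore also assume that both kinds of value are comparable, which limits every "rose" and "fell".

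Levels are on the authors' log2 scale, in a unit they call sigma that is not defined in the sources used here, and the sequencing depth is unknown. The lowest level was 0.26 at 48 h and 0.05 at 72 h, which bounds the differences of genes near the floor: 50 of the 369 higher entries were under 1 at 48 h. Since gene length is not known to be taken out of the unit, levels were not tested between genes, and where genes are ranked or summed by level this is on the authors' scale. The hepatocyte label was checked against markers: Alb, which encodes albumin, stood at 15.23 at 0 h, 15.25 at 48 h and 16.01 at 72 h, the highest listed at 48 and 72 h. Markers of Kupffer cells, endothelium and neutrophils were measured in the same livers, as given below. In bulk RNA, more cells of a type and more RNA per cell cannot be told apart.

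**Figure D1:**
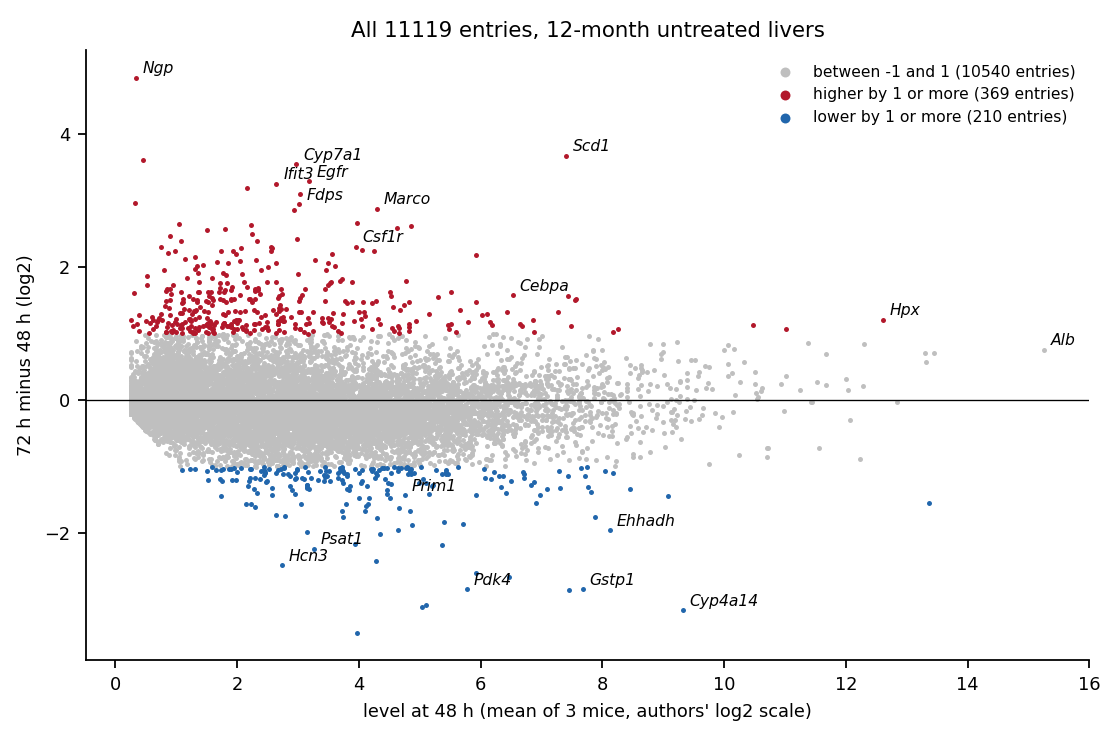
Each point is 1 of 11119 entries, with the mean level at 48 h on the x axis (authors' log2 scale) and the difference between 72 and 48 h on the y axis (log2). Red marks the 369 entries higher by 1 or more, blue the 210 lower by 1 or more. Ngp and Scd1 lie highest, and the largest differences on the high side come from genes of low or middle level.

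Promoters of several interferon-induced genes with large differences carry the core of the ISRE, an element through which interferon acts on its target genes. The windows below are shown because these 4 genes were among the most changed and hold the ISRE core, GAAANNGAA on either strand, upstream of the start. They are RefSeq promoters of build GRCm38.p6, read 5′ to 3′ on the gene's strand, with the match in capitals. Ifit3 lies on the plus strand with the window at chr19:34583334-34583422, Rsad2 on the minus strand at chr12:26456523-26456611, Isg15 on the minus strand at chr4:156200848-156200936 and Oas3 on the minus strand at chr5:120777686-120777774.
Ifit3: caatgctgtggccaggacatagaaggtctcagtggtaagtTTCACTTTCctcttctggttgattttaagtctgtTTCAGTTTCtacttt
Rsad2: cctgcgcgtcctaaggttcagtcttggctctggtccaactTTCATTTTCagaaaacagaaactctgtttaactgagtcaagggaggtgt
Isg15: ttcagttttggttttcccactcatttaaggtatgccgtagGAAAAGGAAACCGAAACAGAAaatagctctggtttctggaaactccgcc
Oas3: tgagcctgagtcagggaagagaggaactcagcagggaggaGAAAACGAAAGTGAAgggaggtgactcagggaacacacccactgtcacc
The window of Isg15 holds 3 overlapping matches and that of Oas3 holds 2. Over the 250 bases before to 50 after the start, 28 of the 48 antiviral effector genes with a promoter in the table held the core (58.3%), against 747 of all 8234 genes (9.07%). All 9 promoters of the Gbp and Irg GTPase genes held it.

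The antiviral effectors, the proteins that block viral replication inside the cell, were the largest interferon group. Of 54 measured, 52 were above 0, as 39.9% of all entries were, and 28 were higher by 1 or more, with a median difference of 1.07 against −0.10 over all entries. Of the 54, 9 passed limma and 38 had an unadjusted p under 0.05. The 369 higher entries varied more among the 4 ATRi livers (median SD 0.49) than all entries did (0.23). Ifit3, an inhibitor of viral translation, stood at 4.05 at 0 h, 2.65 at 48 h and 5.90 at 72 h. The 4 ATRi livers read 2.94, 4.78, 6.36 and 4.78, so the 48 h mean lay below all of them, and the adjusted p was 0.050. Rsad2, which encodes viperin, went from 3.03 to 6.12 with livers at 4.30, 4.63, 6.79 and 3.35 (adjusted p = 0.061). Isg15, a ubiquitin-like modifier, went from 2.25 to 4.75 (adjusted p = 0.071).

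Other effectors rose by the test. Oas3, a sensor of double-stranded RNA that starts RNA decay, rose from 0.74 to 3.04, a difference of 2.30 (limma adjusted p = 0.018), and the 4 single ATRi livers at 72 h lay between 1.69 and 2.92. Ifi44 rose by 3.19 (adjusted p = 0.0498) and Ifitm3, a membrane protein that blocks viral entry, by 1.03 from an already high 8.17 (adjusted p = 0.019). Among effectors whose promoter held the ISRE core the median difference was 1.22, and among those without it 0.79. Lgals9 and Bst2 differed by only 0.39 and 0.31.

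The sensors that start the response were higher too. Of 20 measured nucleic acid sensors and adaptors, 17 were above 0, 8 were higher by 1 or more and 5 passed limma, with a median of 0.55. Zbp1, a sensor of Z-form nucleic acid, was 3.83 at 0 h, 3.98 at 48 h and 6.64 at 72 h. It rose by 2.66 (limma adjusted p = 0.018), and the ATRi livers of 5.45 to 6.94 were all above the 48 h mean. Dhx58 and Ddx58, RNA helicases that sense viral RNA, differed by 2.21 (adjusted p = 0.037) and 1.49 (adjusted p = 0.056). Pyhin1 rose by 1.87 from 0.52, Tlr9, the endosomal DNA receptor, from 0.90 to 2.40, and Unc93b1, which carries such receptors to the endosome, by 1.30. The adaptor Mavs did not share this, at 5.74 and 5.60.

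Receptors and signalling factors had a lower median, 0.15. Of 14 receptor, STAT and IRF genes, 10 were above 0. None of the 14 passed limma, and 4 had an unadjusted p under 0.05. Irf2 differed by 0.99, Irf8 by 0.91, Stat2 by 0.26 and the kinase gene Tyk2 by −0.39. Among 13 negative regulators, Usp18, which removes ISG15 and damps the receptor, differed by 2.06 and Cd274, which encodes PD-L1, by 1.83, neither passing limma. Socs3, a feedback inhibitor of cytokine signalling, differed by −0.90.

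The GTPases of the Gbp and Irg families, which attack vacuoles of intracellular microbes, had a median of 0.63 with 14 of 15 above 0. Gbp3 differed most, by 2.42. None of the 15 passed limma, and 7 had an unadjusted p under 0.05. MHC class I genes had a median of 0.29, and the members listed highest, H2-K1 and H2-D1, stood at −0.26 and −0.01. Class II genes had a median of 0.34, and Ctss, a protease that processes antigen, rose by 1.49 (limma adjusted p = 0.019). The near-identical H2 genes share reads, so their values are uncertain.

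Genes of Kupffer cells and other phagocytes were higher over the same interval. Of 19 measured Kupffer cell and macrophage markers, 18 were above 0, 14 were higher by 1 or more and 15 passed limma, and the median of 1.48 was the highest of the 68 lists with 5 or more measured genes. Their summed level, the log2 of the sum of the members' linear values, was 9.53 at 0 h, 9.34 at 48 h and 10.39 at 72 h, and 10.03 to 10.77 in the 4 ATRi livers. No marker of the list was at 0. The summed level of macrophage markers was thus higher at 72 h, as the medians of the interferon lists were. In the ATRi livers M545 to M548 the macrophage list medians were 5.08, 4.69, 4.06 and 5.09. Those of the antiviral effectors were 2.61, 3.35, 4.11 and 2.91. The part of macrophage markers in the interferon differences was not tested.

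Marco, a scavenger receptor, rose from 4.29 to 7.17 with 4.72 at 0 h (limma adjusted p = 0.034), and the ATRi livers read 8.22, 5.90, 6.16 and 6.48. Csf1r, the receptor for macrophage growth factor, was 5.32, 3.95 and 6.25 at 0, 48 and 72 h, and it rose by 2.31 (adjusted p = 0.0086), with the ATRi livers within 5.89 and 6.29. Both 72 h means exceeded the 0 h mean. Cd5l, a secreted Kupffer cell protein, rose by 2.18, Lyz2, lysozyme, by 2.26, and Fcgr1, a high-affinity IgG receptor, by 2.06. Clec4f, which in the liver marks Kupffer cells, rose by 1.33 from 6.43 to 7.76 (adjusted p = 0.012). Hmox1, which degrades haem, went the other way, at 7.59 and 7.08.

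Fc receptors and phagocyte signalling genes passed limma in 22 of 28 cases, all of them upward, with a median of 1.05. Fcgr4 rose by 2.56, Laptm5, a lysosomal protein of blood cells, by 2.39, and the integrin gene Itgal by 2.08, each at an adjusted p of 0.0096 or 0.0097. Siglec1, a macrophage lectin that interferon induces, rose from 1.80 to 4.38 (adjusted p = 0.016). Markers of monocytes and recruited macrophages gave a smaller median of 0.48, with 3 of 12 rising. Plac8 (1.25), Itgam (0.90) and Ms4a7 (0.59) rose, while Trem2 and Gpnmb, genes of lipid-associated macrophages, were at −0.35 and −0.22.

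Neutrophil genes held the largest single difference of the table. Ngp, a granule protein made in immature neutrophils, was 3.48 at 0 h, 0.34 at 48 h and 5.19 at 72 h, and the ATRi livers read 4.47, 6.80, 4.85 and 4.73. It rose by 4.85 (limma adjusted p = 0.016), a 28.8-fold difference against a 48 h mean near the floor. The other granule genes Mpo (3.61, adjusted p = 0.068) and Ltf (2.97, adjusted p = 0.056) were also close to the floor at 48 h, at 0.46 and 0.32. Of 21 neutrophil markers 12 were higher by 1 or more and 7 passed limma, with a median of 1.20. The lower of the 2 levels was under 1 for 13 of them. The members with the highest levels, Wfdc21 and Lcn2, the second of which hepatocytes also make, were at 0.01 and −0.20, and the summed level changed only from 9.75 to 9.95.

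Lymphoid, endothelial and stromal markers differed less. T and NK cell markers had a median of 0.10 and 16 of 17 were under 1 in at least 1 of the 2 means. Gzmb, a cytotoxic protease, rose by 1.20 while Gzma and Prf1 fell by 0.56. Of 8 B cell markers 2 rose, among them Cd22 by 0.71. Sinusoidal endothelial markers had a median of 0.48 with 19 of 22 above 0. Cdh5, the endothelial cadherin, rose from 2.12 to 3.46 (limma adjusted p = 0.023) and Plvap from 6.11 to 6.81. Stellate cell and fibroblast markers had a median of 0.13, and Ngfr rose by 1.60. None of 7 cholangiocyte and 9 erythroid markers passed limma, with 2 of each list at an unadjusted p under 0.05.

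Of 33 NF-kB feedback and Toll-like receptor genes, 23 were above 0 and 5 rose, with a median of 0.42. Il1b, an inflammasome-processed cytokine, rose from 2.64 to 4.42, back at its 0 h level of 4.41. Tnfaip3, an inhibitor of NF-kB, rose by 2.19, and Tlr2, the lipoprotein receptor, was 3.57, 1.31 and 3.45 at 0, 48 and 72 h (limma adjusted p = 0.0497). Among 23 chemokines and receptors, Cxcl13, which attracts B cells, rose by 2.63 to 4.85 (adjusted p = 0.018). The 4 ATRi livers held only 1.04 to 2.49 of Cxcl13, below the untreated 72 h mean. Cxcl14 rose by 2.85, while Ccl6 and Ccl9, made by myeloid cells, differed by 1.41 and 1.62 without passing.

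Acute phase proteins, which hepatocytes secrete in inflammation, were uneven. Of 35 measured, 27 were above 0 and 7 were higher by 1 or more, with a median of 0.30. Orm1, orosomucoid, rose from 4.86 to 7.47 with 6.86 at 0 h (limma adjusted p = 0.023), and its close copy Orm3, with which it may share reads, rose by 2.59. Crp rose by 1.79 and Hpx, the haem carrier hemopexin, by 1.21 to 13.81. The fibrinogen genes Fga and Fgg differed by 0.70 and 0.57 without passing limma. Of 24 complement genes, C3 rose by 0.84 from 12.30 to 13.14 (adjusted p = 0.022).

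**Figure D2:**
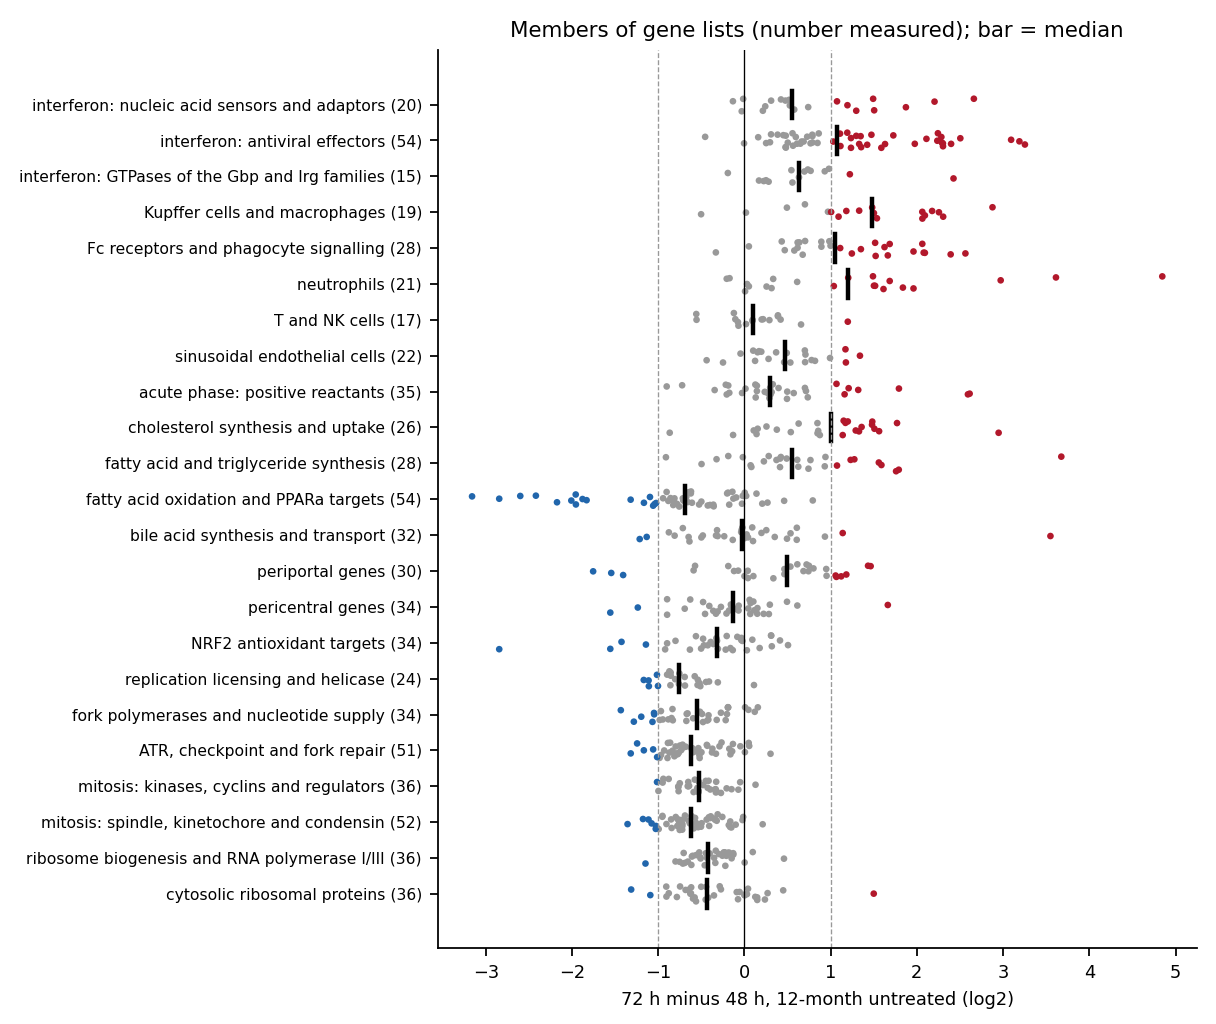
Each point is 1 measured gene of a list, with the difference between 72 and 48 h in untreated 12-month livers on the x axis (log2); the number measured stands in brackets and the black bar is the list's median. Red points are higher and blue points lower by 1 or more. The macrophage list has its median at 1.48, the fatty acid oxidation list at −0.69.

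Sterol and fatty acid synthesis genes were higher at 72 h, from a low at 48 h: the median level of the cholesterol list was 5.90, 4.82 and 6.07 at 0, 48 and 72 h. Of 26 cholesterol synthesis and uptake genes, 24 were above 0 and 13 higher by 1 or more, with a median of 1.01. Of the 26, 4 passed limma and 14 had an unadjusted p under 0.05. Fdps, which makes farnesyl pyrophosphate, was 5.50, 3.02 and 5.97 at 0, 48 and 72 h (limma adjusted p = 0.028). Dhcr7, the last step of synthesis, rose by 1.48.

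Hmgcs1, the enzyme that forms HMG-CoA for sterols, went from 7.55 to 9.06 with 8.46 at 0 h (limma adjusted p = 0.18). Its promoter is shown because it was the only 1 of 19 cholesterol gene promoters in the table with the SREBP site TCACNCCAC on either strand. That site was in 132 of 8234 promoters in all (1.60%). The window lies upstream of the start at chr13:119690174-119690262 on the plus strand of GRCm38.p6 in RefSeq, with the match in capitals.
Hmgcs1: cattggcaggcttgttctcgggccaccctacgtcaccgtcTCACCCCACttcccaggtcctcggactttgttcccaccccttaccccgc

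Among 28 fatty acid and triglyceride synthesis genes, 23 were above 0, 8 were higher by 1 or more and 4 rose. Scd1, the stearoyl-CoA desaturase on chromosome 19, was 11.91 at 0 h, 7.41 at 48 h and 11.08 at 72 h, and the ATRi livers read 9.98, 10.94, 11.91 and 10.76. It rose 12.8-fold (limma adjusted p = 0.016). Fasn, fatty acid synthase, rose by 1.56 from 7.44 (adjusted p = 0.039), while Acly and Acss2, which supply acetyl-CoA, differed by 1.27 and 1.79 without passing. All 4 stayed below their 0 h levels of 11.91, 9.69, 7.77 and 6.04.

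Fatty acid oxidation genes and other targets of PPARa, the nuclear receptor that drives fat burning in fasting, took the opposite course. Of 54 measured, 47 were below 0, as 60.0% of all entries were, 16 were lower by 1 or more and 18 fell by limma, with a median of −0.69. None of the 54 rose. Ehhadh, a peroxisomal oxidation enzyme, was 6.45, 8.12 and 6.16 at 0, 48 and 72 h and fell by 1.95 (adjusted p = 0.0086). The 4 single ATRi livers at 72 h, of 5.80 to 6.09, lay within a narrow band below the 48 h mean. Pdk4, which shuts glucose carbon out of the mitochondrion, fell by 2.84 from 5.78 (adjusted p = 0.011). Slc22a5, the carnitine transporter, fell by 1.96.

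Cyp4a14, a fatty acid omega-hydroxylase, had the lowest difference of any single gene named here, −3.16. It stood at 3.47, 9.32 and 6.16 at 0, 48 and 72 h. The livers read 2.77, 5.57, 1.63 and 5.48, and with that spread it did not pass limma (adjusted p = 0.11). Its neighbours Cyp4a10, Cyp4a31 and Cyp4a32 fell by 2.42, 1.83 and 2.01, and the thioesterase genes Acot1, Acot2 and Acot3 by 2.60, 2.17 and 1.88. Within each of these families near-identical copies may share reads. A member of high level differed less: Fabp1, a fatty acid carrier, went from 12.23 to 11.35 without passing.

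Bile acid, lipoprotein and glucose genes did not move as groups. The 32 bile acid genes had a median of −0.03. Cyp7a1, which turns cholesterol into bile acids, was 6.63, 2.97 and 6.52 at 0, 48 and 72 h, but the ATRi livers ranged from 1.38 to 6.46 and the difference of 3.55 did not pass limma (adjusted p = 0.12). Of the lipases, Lpl rose by 1.83 and Lipc by 1.58, and Apoa4, an apolipoprotein, went from 13.36 to 11.82 (adjusted p = 0.073). The gluconeogenic genes G6pc and Pck1 differed by −1.44 and −1.41 without passing, while Pck2, the mitochondrial form, fell by 0.97 (adjusted p = 0.028).

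**Figure D3:**
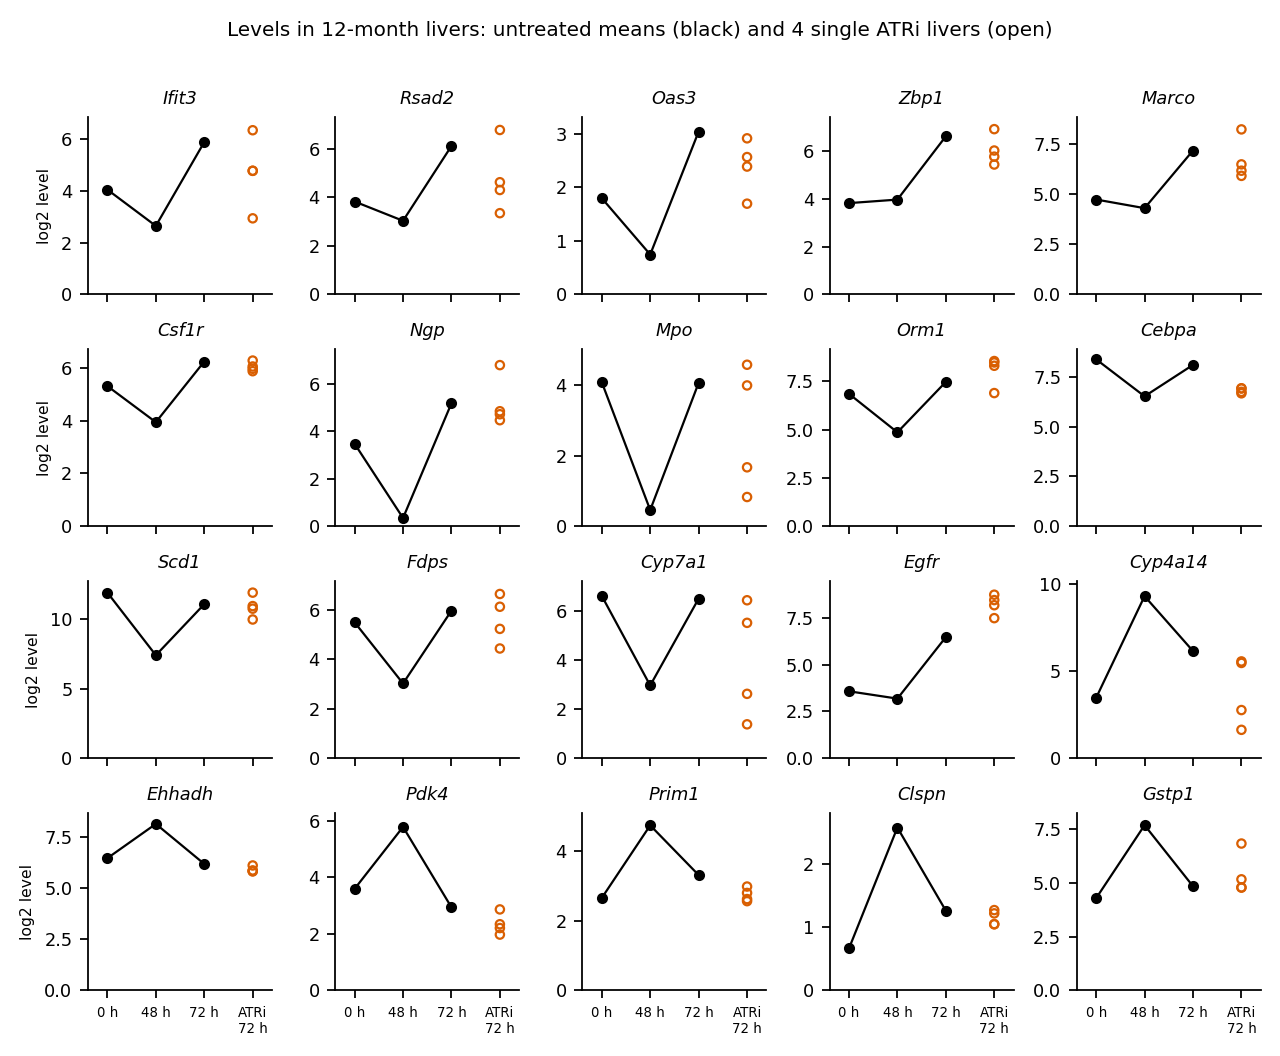
Each panel is 1 gene, with the mean level of untreated 12-month livers at 0, 48 and 72 h as joined black points and 4 single ATRi livers at 72 h as open points (authors' log2 scale). Ngp, Scd1 and Cyp7a1 dip at 48 h, Ehhadh, Pdk4 and Prim1 peak there, and the open points of Cyp7a1 spread from 1.38 to 6.46.

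Receptors for growth signals and hepatocyte transcription factors gave some of the largest differences. Egfr, the receptor for EGF and TGF-alpha, was 3.58 at 0 h, 3.19 at 48 h and 6.48 at 72 h. The livers read 8.19, 7.50, 8.46 and 8.75, and Egfr rose by 3.29 (limma adjusted p = 0.012). The growth hormone receptor gene Ghr rose by 1.88 to 3.71, above 2.51 at 0 h (adjusted p = 0.016). Foxo3, a factor that insulin restrains, rose by 2.03 (adjusted p = 0.031). Foxo1 (1.34) and Prlr, the prolactin receptor (1.33), did not pass. Trib3, an inhibitor of AKT and a target of ATF4, fell by 1.59.

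Of 39 transcription factor and nuclear receptor genes, 29 were above 0 and 4 were higher by 1 or more, and 3 of the 39 rose. Cebpa, a factor that holds hepatocytes in their differentiated resting state, was 8.39, 6.53 and 8.11 at 0, 48 and 72 h. It rose by 1.58 (limma adjusted p = 0.0096), and the ATRi livers at 6.68 to 6.93 were close to the 48 h mean and below the 72 h mean. Nfia rose by 2.12 from 1.14 and Rxra, the partner of many nuclear receptors, by 1.33 (adjusted p = 0.045). Foxa1 (−1.24) and Klf10 (−1.66) were lower without passing, and Hnf4a, which maintains hepatocyte identity, stood at 7.96 and 7.58.

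Periportal genes, which belong to hepatocytes near the inflowing blood, had a median of 0.50 with 8 of 30 rising. Of the 30, 6 were higher and 3 lower by 1 or more. Their summed level was lower at 72 h, at 13.21 against 13.87 at 48 h. Cps1, the entry enzyme of the urea cycle, rose from 8.26 to 9.32 (limma adjusted p = 0.028), and Ass1, another step of it, differed by 1.46 without passing. The 34 pericentral genes had a median of −0.13, and Cyp2e1, the main ethanol-oxidising P450, was at 12.03 and 12.18. Cyp2a5 rose from 2.35 to 4.01 while the ATRi livers stayed at 0.55 to 2.05 (adjusted p = 0.046). Its close copy Cyp2a4, with which it may share reads, differed by −0.41.

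Antioxidant genes were mostly lower at 72 h. Of 34 targets of NRF2, a factor that answers oxidative stress, 26 were below 0, as 60.0% of all entries were. Of the 34, 4 were lower by 1 or more and 5 fell, with a median of −0.31 against −0.10 over all entries. Gstp1, a glutathione transferase, was 4.28, 7.68 and 4.84 at 0, 48 and 72 h, with livers at 6.83, 4.78, 4.78 and 5.16. It fell by 2.84 (limma adjusted p = 0.030) and its close copy Gstp2, with which it may share reads, by 2.85. Gclc, which makes glutathione, fell by 1.14, Aox1 by 1.43 and Gstm1 by 1.55. Of 52 P450 genes outside lipid pathways, 2 rose and 4 fell, Cyp26a1, which clears retinoic acid, by 1.40 among the latter.

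In amino acid metabolism the serine synthesis enzyme Psat1 stood out. It was 0.98 at 0 h, 3.26 at 48 h and 1.02 at 72 h, with livers of 0.86 to 1.38, and fell by 2.24 (limma adjusted p = 0.0096). Mthfd2, a folate enzyme of mitochondria that supplies nucleotide synthesis, differed by −1.46 (adjusted p = 0.0505), and both are ATF4 targets. Asns, another ATF4 target, was instead higher by 0.80 without passing.

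Genes of DNA replication were lower at 72 h than at 48 h. Of 24 licensing and helicase genes, 23 were below 0, 5 were lower by 1 or more and 8 fell, with a median of −0.76. Mcm5 and Mcm6, subunits of the replicative helicase, fell by 1.11 each, from 5.37 to 4.26 and from 5.46 to 4.35, and stayed above their 0 h levels of 2.32 and 3.17. Cdc45, which joins that helicase at the fork, fell by 1.17 (limma adjusted p = 0.023). Donson was the only member above 0, at 0.11. Of 34 polymerase and nucleotide supply genes 6 fell. Prim1, the primase subunit, was 2.66, 4.75 and 3.32 at 0, 48 and 72 h (adjusted p = 0.019), and the livers lay between 2.57 and 2.99.

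Uhrf1, which carries DNA methylation through replication, fell from 2.98 to 1.93 (limma adjusted p = 0.026). Its promoter is shown as 1 of 5 among 30 of the polymerase and nucleotide supply genes with the E2F site TTCCCGCC on either strand, a site held by 363 of 8234 promoters (4.41%). The window lies upstream of the start at chr17:56303249-56303336 on the plus strand of GRCm38.p6 in RefSeq, with the match in capitals.
Uhrf1: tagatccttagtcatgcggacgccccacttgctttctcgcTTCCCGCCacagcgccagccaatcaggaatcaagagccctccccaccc

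Checkpoint and fork repair genes included the pathway that ATRi targets. Of 51 measured, 47 were below 0 and 16 fell by limma, with a median of −0.61. Clspn, which links ATR to its effector kinase CHK1, was 0.66, 2.58 and 1.26 at 0, 48 and 72 h and fell by 1.32 (adjusted p = 0.014). Tipin, a fork protection factor, fell by 1.24, and Brca2, which protects stalled forks, by 1.17. E2f1, the activator of S-phase genes, fell by 1.16. Outside the checkpoint and fork repair list, Ercc6l, a helicase of chromatin bridges in mitosis, fell by 1.98 from 3.15, to 1.17 (adjusted p = 0.0096).

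Mitotic genes were lower in nearly all cases but seldom by a large amount. Of 36 kinases, cyclins and regulators 1 was above 0, and of 52 spindle, kinetochore and condensin genes 1 was above 0. Only 2 and 8 of them fell by limma, with medians of −0.53 and −0.61. Cdk1, the mitotic kinase, stood at 1.52 at 0 h, 6.08 at 48 h and 5.09 at 72 h (adjusted p = 0.072), and Ccnb2, its cyclin, at 1.96, 6.08 and 5.87. Both 72 h means were above 0 h. Mki67, the proliferation marker Ki-67, fell by 0.95 from 5.17 (adjusted p = 0.043), and the condensin genes Ncapg2 and Ncapd3 fell by 1.35 and 1.18.

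Among p53 targets the median was −0.01. Cdkn1a, which encodes the cell cycle inhibitor p21, was 5.71, 8.20 and 7.22 at 0, 48 and 72 h (limma adjusted p = 0.15), and Bbc3, the death factor PUMA, rose by 1.52. Of 27 immediate early genes, Dusp6, a brake on ERK signalling, fell by 1.17. Taf1d, a factor of RNA polymerase I, fell by 1.15, and the 36 ribosome biogenesis genes had a median of −0.42. The 36 cytosolic ribosomal protein genes had a median of −0.43, with 6 falling; these have many pseudogene copies, so their values are uncertain. Heat shock, proteasome and splicing factor genes had medians of −0.09, −0.16 and −0.11. None of them passed limma, and 2 of 21, 6 of 30 and 10 of 41 had an unadjusted p under 0.05.

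Some single genes outside these groups belonged to the 20 lowest. Sftpa1, a surfactant protein gene, was 2.25, 5.03 and 1.91 at 0, 48 and 72 h and fell by 3.12 (limma adjusted p = 0.0075). Rpusd3, a pseudouridine synthase gene of mitochondria, fell by 3.08 from 5.11. Hcn3, an ion channel gene, fell from 2.74 to 0.26, the only 1 of these 3 that had been as high at 0 h, at 3.13. Slc30a3, a zinc transporter gene, and Lgals4, a galectin gene, fell by 2.16 and 1.86.

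Some of the called genes were neighbours on a chromosome, 82 of 579 (14.2%) by the following count. No such share was counted for genes that were not called, so whether 14.2% exceeds what gene spacing alone gives was not tested. In 22 places, 3 or more genes past a 2-fold change in the same direction lay with gaps of at most 500 kb, and the following genes were picked from them after their values were seen. In 3 of the 22 the median over all genes of the span was below 0 although the run was of higher genes. On chromosome 1, all 5 measured genes of a run of interferon-inducible DNA sensor genes from Pydc4 to Ifi204 were higher, by 1.07 to 1.87. On chromosome 5, 4 of 6 measured genes at the Oas cluster were higher by 1.98 to 2.30. On chromosome 11, 7 of 16 genes around the Slfn and Ccl genes were higher, by 1.16 to 2.40. Only the Cyp4a cluster on chromosome 4 (5 of 8) and the Acot cluster on chromosome 12 (4 of 4) formed such runs of lower genes.

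The median difference was highest in the longest genes, although the called genes had a lower median length than all entries. The higher entries had a median length of 18768 bp and the lower ones of 15128 bp, against 26702 bp over all entries with a length. Gene length was taken from the GENCODE M21 annotation for 10409 entries (93.6%). In the longest decile of these, 115501 bp and over, 68 of 1041 genes were higher by 1 or more (6.53%) and none was lower, and the median difference was 0.17, against −0.15 in the shortest decile. The share higher by 1 or more was also 5.28% and 4.32% in the next 2 shortest deciles, and it was lowest in the seventh, at 1.35%. Across the 10409 genes, which are not independent replicates, Spearman's rho between length and difference was 0.20. It was 0.28 in the 3-month interval and 0.40 in the ATRi interval, where the longest decile had a median of 0.68. Egfr (165956 bp), Nfia (346141 bp) and Ghr (265733 bp), described above, belong to these long genes. So does Pid1 (327885 bp), an adaptor that dampens insulin signalling, which rose from 1.04 to 3.69 (limma adjusted p = 0.027). Of others chosen after their values were seen, Zbtb20 (766722 bp) rose from 0.97 to 3.22 and Prr16 (302312 bp) from 0.90 to 3.38. The authors' way of counting reads along genes is not given in the sources used here, and its part in this relation was not tested.

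**Figure D4:**
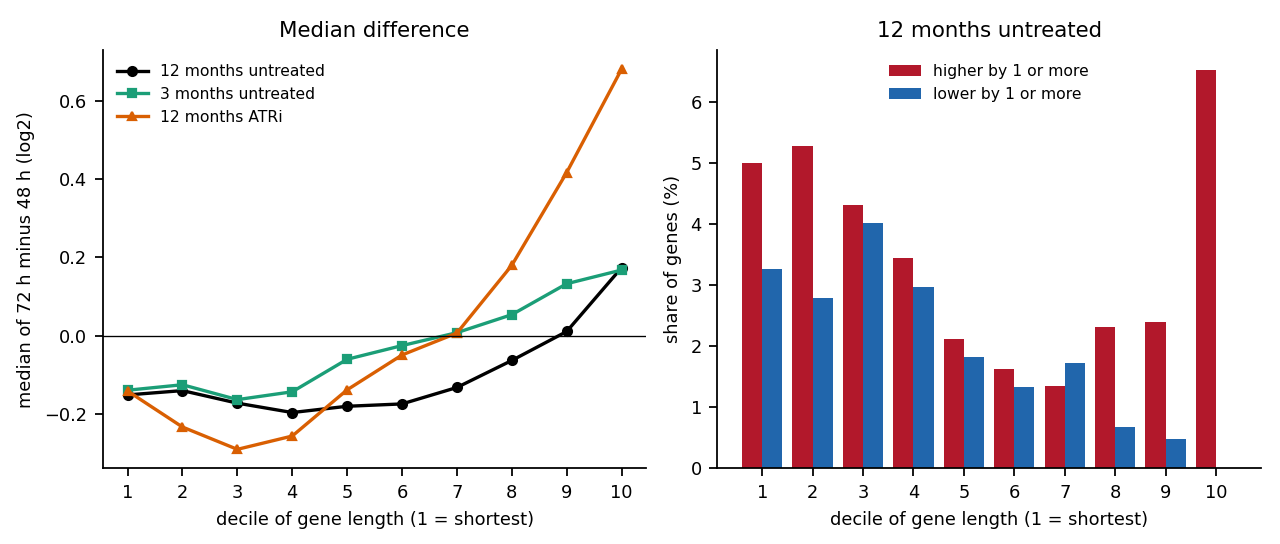
Left, the median difference between 72 and 48 h (log2) in deciles of gene length, for untreated 12-month, untreated 3-month and ATRi 12-month livers. Right, the share of genes higher or lower by 1 or more in untreated 12-month livers (%); in the longest decile 6.53% are higher and none is lower.

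Promoter motifs were counted over the same 8234 genes, on both strands, and each count is a description. Of genes with the ISRE core, 6.56% were higher by 1 or more, against 2.84% of genes without it. Of higher genes outside the interferon lists, 28 of 232 held it (12.1%). Genes with the E2F site were lower by 1 or more in 2.75% of cases, against 1.83% without it. The CHR element TTTGAA, which is known from promoters of mitotic genes, was in 32 of 46 spindle, kinetochore and condensin promoters (69.6%), against 14.7% of all. Genes with the CHR element were not lower more often: 1.73% were lower by 1 or more, against 1.89% without it. The DR1 core GGTCANAGG was in none of 40 fatty acid oxidation promoters, which says only that these letters are not in that window.

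At 3 months, 311 of the 369 higher entries and 172 of the 210 lower ones differed in the same direction, by medians of 0.50 and −0.55. The median over all entries at 3 months was −0.015. There, 179 entries were higher by 1 or more (1.61%) and 338 lower (3.04%). Of the 369 entries higher at 12 months, 54 were also higher at 3 months, which is 14.6% of the 369 and 30.2% of the 179. Of the 210 lower, 47 were also lower, which is 22.4% of the 210 and 13.9% of the 338. Across all entries Pearson's r between the intervals was 0.47, a description over genes that are not independent replicates.

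Several lists had unlike medians at the 2 ages. The antiviral effectors were at 1.07 at 12 months and 0.21 at 3 months, macrophage markers at 1.48 and 0.40, and neutrophil markers at 1.20 and −0.07. Fatty acid oxidation genes were at −0.69 and 0.36, and positive acute phase genes at 0.30 and −0.39. Replication licensing genes were alike in size at −0.76 and −0.82, while mitotic kinases and regulators were lower at 3 months, at −0.53 and −1.01. These list differences between ages have no test.

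Gene by gene, the difference between the 12-month and the 3-month interval passed limma with the borrowed spread for 9 entries, 3 of them larger at 12 months (0.027%) and 6 smaller (0.054%). Unadjusted p-values were under 0.05 for 1572. Cebpa was 1.58 at 12 months and −1.72 at 3 months, a difference of 3.30 ± 0.19 (SE, adjusted p = 0.0046). Ehhadh was −1.95 and 0.35, a difference of −2.31 ± 0.19 (adjusted p = 0.024), and Cyp4a10 was −2.42 and 0.43 (adjusted p = 0.028). Hcn3 was −2.48 and 0.55 (adjusted p = 0.012). The joined entry Elovl3--Pitx3, in which 2 genes cannot be told apart, was −3.50 and 0.28 (adjusted p = 0.0046). Ngp, at 4.85 and −0.76, did not pass (adjusted p = 0.062).

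Under ATRi, 349 of the 369 higher entries and 186 of the 210 lower ones differed in the same direction. The median over all entries under ATRi was −0.012. There, 1412 entries were higher by 1 or more (12.7%) and 779 lower (7.01%). Of the 369 entries, 247 were also higher under ATRi, which is 66.9% of the 369 and 17.5% of the 1412. Of the 210, 112 were also lower, which is 53.3% of the 210 and 14.4% of the 779. The median under ATRi was 1.43 over the 369 and −1.10 over the 210. Pearson's r across all entries was 0.63.

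By limma the untreated and the ATRi interval differed for 2 entries, 1 larger and 1 smaller untreated (0.00899% each), with 2689 at an unadjusted p under 0.05. This test takes the mean of the 4 single livers as the ATRi 72 h level, not the deposited mean. Cebpa differed by 2.64 ± 0.19 (SE, adjusted p = 0.039), being 1.58 untreated and −1.19 in the deposited ATRi means. Hcn3 differed by −2.79 ± 0.22 (SE, adjusted p = 0.040). Replication licensing genes had medians of −0.76 untreated and −1.42 under ATRi, positive acute phase genes 0.30 and 1.01, and macrophage markers 1.48 and 1.11, with no test of these differences.

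**Figure D5:**
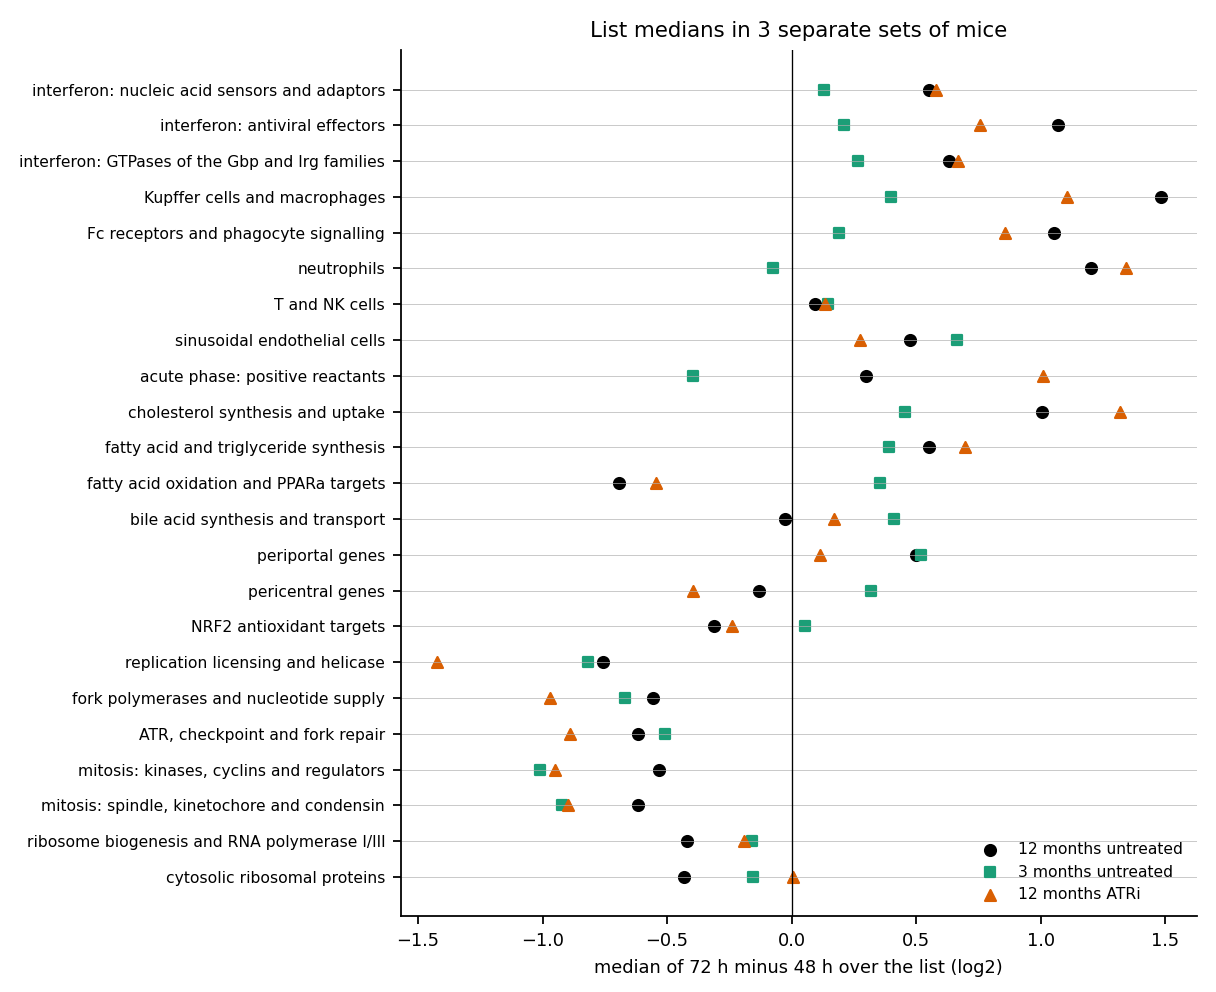
Median difference between 72 and 48 h (log2, x axis) of each gene list in untreated 12-month (black circles), untreated 3-month (green squares) and ATRi 12-month livers (orange triangles), which share no mice. Fatty acid oxidation genes lie at −0.69 at 12 months and 0.36 at 3 months, and the neutrophil list at 1.20 and −0.07.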

How the data were processed

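Liver polyA RNA was sequenced, and the authors deposited 1 table of log2 values per group, each value a mean over mice, with tables of single livers for 1 of the groups; they name the unit sigma, and its definition, the aligner, the counting, its use of strand and the depth are not given in the sources used here. The genome builds GRCm38 and mm10 are named per the submitters' processing notes. Differences are the 72 h mean minus the 48 h mean of untreated 12-month livers, over all 11119 entries, of which 507 join several genes. An absolute difference of 1 or more was counted, with no test. limma 3.58.1 in R 4.3.3 took the residual spread from the 4 single ATRi livers at 72 h, adjusted by Benjamini-Hochberg over all entries at 0.05, for the interval and for its difference from the 3-month and ATRi intervals, and was tested on simulated data. The labels name those livers as coming from 4 mice, but nothing says how they were prepared. The p-values measure only their spread, part of which may be technical.

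Of 70 gene lists, 68 had 5 or more measured members. Members, lists and tests were chosen with earlier results of these data known. The genes named are the 20 largest and 20 smallest differences (predicted, clone-named and joined entries passed over), and in each list up to 6 with the largest absolute difference, the 2 with the highest level, and every member of lists of 12 or fewer; others are said to be chosen after their values were seen, and some genes that the rule names are not reported here. Promoters are RefSeq's for GRCm38.p6, from 250 bases before to 50 after the start, and 8234 genes had at least 1. Gene lengths came from GENCODE M21. The alternatives tried were centring, other thresholds, a filter on low levels, a pseudocount of 1 on the linear scale, leaving out joined entries and the borrowed spread.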

Additional observations from a re-analysis of the deposited data

Results flagged for a closer look

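The borrowed spread comes from 4 single ATRi livers, and in 8 of 68 lists 1 of these livers stood apart from the other 3 by Dixon's test; chance flags about 1 in 20 groups. The list medians of liver M545 were 4.24 for interferon receptors, STATs and IRFs (others 3.79 to 3.82), 2.93 for monocyte markers (others 1.59 to 1.71), 2.91 for stellate cell markers (others 2.03 to 2.12) and 6.84 for complement (others 7.32 to 7.42). Liver M546 had 2.73 for erythroid markers (others 1.82 to 1.89) and 3.62 for insulin and growth factor signalling (others 4.35 to 4.40). Liver M548 had 4.79 for hepatocyte transcription factors (others 4.28 to 4.32) and 2.98 for apoptosis regulators (others 3.18 to 3.21).

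By limma with the borrowed spread, 9 entries differed between the untreated 12-month interval and the 3-month interval. The difference, 12 months minus 3 months, was 3.30 for Cebpa, −3.78 for the joined entry Elovl3--Pitx3, −3.03 for Hcn3, −2.85 for Cyp4a10 and −2.31 for Ehhadh. Every entry outside the naming rule that passed this test is also given, and none of these was past 1 in the 12-month interval. Cyp2a4 differed by −1.85 (−0.41 at 12 months and 1.44 at 3 months, adjusted p = 0.012) and Clec2h by −1.64 (−0.87 and 0.77, adjusted p = 0.042). Pkdcc differed by 2.28 (0.78 and −1.495, adjusted p = 0.027) and Sectm1a by 1.78 (0.38 and −1.40, adjusted p = 0.042). Against the ATRi interval, Cebpa differed by 2.64 and Hcn3 by −2.79.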

How the results depend on the processing

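Centring changed the counts of 369 higher and 210 lower entries to 467 and 139, and centring within 20 bins of gene length, an alternative added after seeing the data, left 105 lower. A threshold of 0.5 gave 1207 higher and 1611 lower, a threshold of 1.5 gave 134 and 39, and the pseudocount left 128 lower. limma with the borrowed spread called 484 lower. Differences of 1 or more between intervals, 613 entries against 3 months and 1351 against ATRi in the deposited means, were reduced by limma to 9 and 2. Among genes with a mean of 2 or more at 48 or 72 h, the neutrophil median was 1.69 in place of 1.20. With the pseudocount, the checkpoint and repair median was −0.48 in place of −0.61. Of 68 list medians, 7 changed sign on centring and 7 on centring within 20 bins of level, all of them 0.108 or less in size. Of 65 lists, 2 did so among genes with a mean of 2 or more at 48 or 72 h, female-biased genes (−0.15 to 0.13) and lipoproteins (0.02 to −0.01). Of the 189 named genes past 1, 17 were no longer past 1 after centring and 23 with the pseudocount. With the borrowed spread, 77 of the 189 did not pass limma. None of the 189 changed sign on centring or with the pseudocount. Neither step can turn the sign of a difference that large, so this is no check. Sign changes among the other named genes, whose differences are smaller, were not counted. No paired analysis was possible because the 48 and 72 h mice carry different names, and leaving out each mouse was not run because only the means of these groups were analysed here. Depth is unknown, and near the floor a difference is bounded by the lowest level.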

Other observations

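Gene groups not described above differed in single members. Of 27 genes that hepatocytes secrete or that define them, 19 were above 0 and 5 rose, with a median of 0.24; Trf, the iron carrier transferrin, rose from 13.45 to 14.16 (limma adjusted p = 0.048), and Pck1 and Serpina1a were the 2 lower by 1 or more. Among metal handling genes Slc39a4, a zinc importer, was 6.89, 5.30 and 6.86 at 0, 48 and 72 h and rose by 1.55 (adjusted p = 0.013). Axl, a receptor for dying-cell bridging proteins, rose by 1.67 and Tgfb1 by 1.21.

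Growth hormone-dependent genes had medians of −0.20 (24 male-biased) and −0.15 (17 female-biased), the second of which was 0.13 among genes with a mean of 2 or more. Clock genes had a median of 0.03, and Nr1d1, which encodes REV-ERBa, stood at 7.11 at 0 h and 5.65 at 48 h and was higher by 1.35 at 72 h (adjusted p = 0.24); the hour of day of sampling is not given in the sources used here. Nuclear oxidative phosphorylation genes had a median of −0.19 and mitochondrial ribosomal proteins −0.23. ER chaperones had a median of 0.20, and none of 33 passed limma, with 6 at an unadjusted p under 0.05. Bnip3, a mitophagy receptor, fell by 0.97 (adjusted p = 0.037), and the matrix and integrin list stood at 0.02.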
